A study of Mus musculus with 40 samples.

Results

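Messenger RNA levels of 9 genes of the renin-angiotensin, endothelin and adrenergic systems were followed in hearts of mice that express *Il11* in cardiomyocytes. The genes were chosen by name: the angiotensin precursor *Agt*, the converting enzyme *Ace* and the receptor *Agtr1a*, the endothelin-1 gene *Edn1* and the receptors *Ednra* and *Ednrb*, and the adrenergic receptors *Adra1a*, *Adra1b* and *Adrb1*. All 9 were found in both expression tables, among 17646 genes in males and 17223 in females, and all 9 passed the filter on low values.

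PolyA RNA of 40 hearts was sequenced, 1 library per mouse, and the level of each gene was given in CPM (reads on the gene scaled by library size). Control mice (WT) carried the α-MHC-MerCreMer transgene without *Rosa26-Il11* and received tamoxifen, and their labels give the time point as baseline. CM-Il11-Tg mice carried both and were examined 1, 3 and 6 weeks after tamoxifen given from 8 weeks of age. A further CM-Il11-Tg group (0 wk) received no tamoxifen. The 0 wk and WT groups thus differed in genotype and in tamoxifen, and these cannot be told apart. The Cre is driven by a cardiomyocyte promoter, so *Il11* is made by cardiomyocytes in this model, whichever cells carry the receptors described here. The labels give the tissue as heart and the study's text names left ventricle or ventricles. Each group had 4 libraries, except male WT and male 6-week hearts, which had 3 each because 2 male libraries had contradictory labels and were left out.

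Angiotensinogen is cut by renin and then by ACE to angiotensin II, which acts on the AT1 receptor to constrict vessels and to promote growth and matrix synthesis in the heart. Endothelin-1, released mainly by endothelium, acts on the ETA and ETB receptors. Noradrenaline from sympathetic nerves acts on β1 receptors, which couple to Gs and raise the rate and force of contraction, and on α1 receptors, which couple to Gq.

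Promoter sequences were taken from RefSeq (GRCm38.p6), where 7 of the 9 genes were matched with 9 promoters in all, *Ace* and *Adra1b* having more than 1 start each. *Agtr1a* and *Adra1a* were not matched. The stretch before the first start of *Ace* is shown because *Ace* was the gene of the set that rose, and that of *Agt* because it alone among these promoters holds the STAT palindrome TTCNNNGAA, the motif of the factors that act downstream of IL11 receptors. Both are given 5′ to 3′ on the strand of the gene up to the base before the start, at chr11:105967698-105967947 on the + strand for *Ace* and at chr8:124569707-124569956 on the - strand for *Agt*, with the palindrome in capitals.
Ace: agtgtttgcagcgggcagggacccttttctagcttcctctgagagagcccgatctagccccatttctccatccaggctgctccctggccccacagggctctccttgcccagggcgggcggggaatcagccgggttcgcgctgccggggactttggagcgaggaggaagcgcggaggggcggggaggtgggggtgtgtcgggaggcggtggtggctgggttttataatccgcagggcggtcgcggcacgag
Agt: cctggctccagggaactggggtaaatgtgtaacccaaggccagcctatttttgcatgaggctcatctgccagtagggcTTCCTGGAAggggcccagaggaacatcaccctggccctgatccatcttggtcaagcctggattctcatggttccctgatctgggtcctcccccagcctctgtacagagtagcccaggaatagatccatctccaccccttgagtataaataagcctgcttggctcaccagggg
The palindrome reads the same on both strands, so a search of 1 strand covers both. It begins 172 bases before the start of *Agt* and was found in 1 of the 9 promoters. Over the same 250 bases it was found in 7.02% of all 32851 promoters in the RefSeq table. A match is a stretch of letters and not a binding measurement. The *Ace* stretch has a GC content of 67.2%, against a median of 52.4% over all promoters.

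*Il11* itself separated the groups by label. It lay between 0 and 0.147 CPM in male WT hearts and between 336 and 819 CPM across male hearts at 1, 3 and 6 weeks. In females it lay between 0 and 0.166 CPM in WT and between 328 and 614 CPM after induction. Without tamoxifen, it was already at 16.5 to 23.3 CPM in males and 15.5 to 49.1 CPM in females. The depth on listed genes was 16663513 to 65333832 reads for males and 19147947 to 30929192 reads for females. In female 0 wk replicate 3, *Il11* and *Ace* were the highest of their group, at 49.1 and 72.1 CPM. *Agt*, *Agtr1a*, *Adra1a*, *Adra1b*, *Adrb1*, *Ednra* and *Ednrb* were the lowest of the group in that library. Female 6-week replicate 2 held the atrial genes *Myl4* and *Myl7* at 383 and 346 CPM, and female 1-week replicate 2 held them at 67.0 and 52.3 CPM. The summed level of the listed atrial markers (2 of 4 in the female table and 1 of 4 in the male) was at most 3.14 CPM in every other library of either sex. Where a result rests on one of these 3 libraries, its value without that library is given too. For the gene lists this was added after seeing the data.

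Differences were tested within each sex with limma on log2(CPM + 0.5), in 1 fit over all libraries of that sex, and p-values were adjusted over all genes tested (Benjamini-Hochberg, called at an adjusted p under 0.05). Fold changes are on that log2 scale, which understates the change of low genes. The libraries are bulk hearts, in which fewer cells of a type and less RNA per cell cannot be told apart. The sum of 8 cardiomyocyte markers was 53147 to 64407 CPM in male WT and 34353 to 44907 CPM in males at 6 weeks, while that of 8 fibroblast markers was 643 to 982 CPM and 4396 to 6125 CPM. In females the same sums were 38282 to 56862 and 33576 to 43318 CPM for cardiomyocytes, and 788 to 1036 and 6166 to 10379 CPM for fibroblasts. The 8 macrophage markers also summed higher at 6 weeks, at 479 to 705 CPM against 120 to 206 CPM in males and 617 to 713 CPM against 123 to 155 CPM in females. None of the markers in these 3 lists was at 0 in all libraries of a group. Their part in the results that follow was not tested.

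In control hearts, *Ace* and *Adra1b* had the highest levels per length of the 9 genes and *Agt*, *Adra1a* and *Edn1* the lowest. Per kb of exons, *Ace* was at 11.6 CPM in male WT (range 11 to 12.7) and *Adra1b* at 9.69 (9.38 to 10), with no overlap between them. In female WT the ranges of *Adra1b* (7.96 to 13.5) and *Ace* (9.34 to 10.8) overlapped, so their order was not resolved. *Adrb1* followed in males at 6.47 CPM per kb, then *Agtr1a* at 4.80, and both stood apart from their neighbours. *Ednrb* and *Ednra* came next in males at 3.94 and 3.81, with overlapping ranges. In females *Ednrb* (6.50), *Agtr1a* (6.43), *Adrb1* (4.68) and *Ednra* (3.49) came next in that order, and neighbours among these 4 overlapped. *Edn1*, *Agt* and *Adra1a* were at 0.934, 0.470 and 0.647 CPM per kb in males, and at 0.985, 0.580 and 0.474 in females, and neighbours in this low group overlapped. The order depends on the length used. With the canonical transcript in place of all exons, a choice made after seeing the data, *Agtr1a* was at 9.68 CPM per kb in males, behind *Ace* and *Adra1b*, and at 13.0 in females, above both. On that length *Adra1a* was at 2.98 and 2.18 CPM per kb and stood above both *Edn1* and *Agt*. *Agtr1b*, a near-identical copy of *Agtr1a*, was in neither table, so how reads shared by both were assigned is not known from the values.

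**Figure D1:**
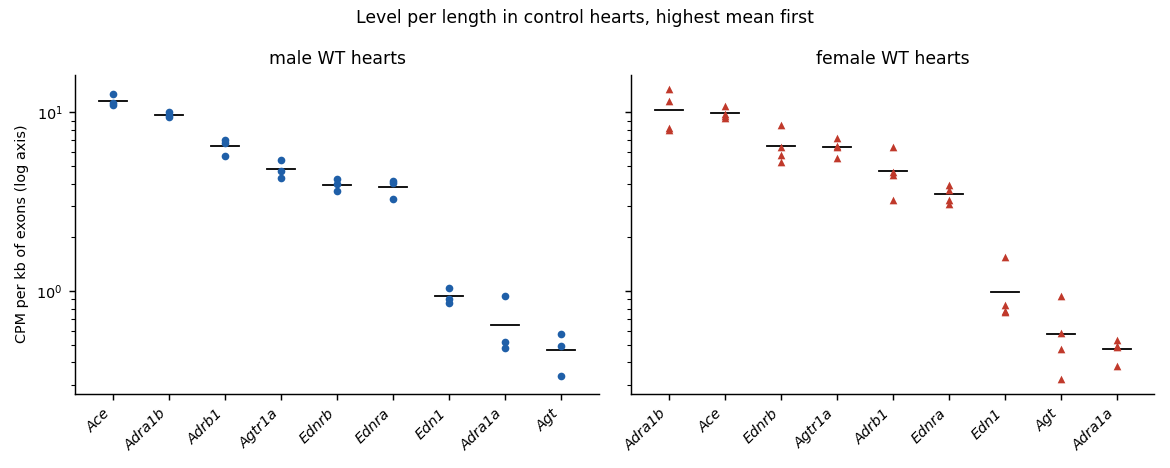
Level of each gene in control (WT) hearts, as CPM per kb of exons on a log axis, for 3 male and 4 female libraries. Points are libraries, lines are means, and genes are ordered by the mean. *Ace* and *Adra1b* lie highest in both sexes, and *Edn1*, *Agt* and *Adra1a* lie lowest.

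Against WT, 1 of the 9 genes rose at each week in each sex, and it was *Ace* every time. In males, *Adra1a*, *Adra1b* and *Agtr1a* fell 1 week after induction, and *Adra1a* was the single gene to fall later. In females, the 1-week fall was *Adra1a*, the 3-week falls were *Adra1a*, *Agtr1a* and *Ednrb*, and the 6-week falls were *Adra1a* and *Agtr1a*. Among all genes tested in males, the shares that rose and fell were 18.9% and 14.6% at 1 week, 13.2% and 8.1% at 3 weeks, and 16.2% and 10.9% at 6 weeks. The corresponding female shares were 15.3% and 13.1%, 16.8% and 14.5%, and 21.7% and 21.0%. A count of 1 riser in 9 is thus near or below the share of all genes that rose. The 3 of 9 that fell in males at 1 week and in females at 3 weeks are a larger share than that of all genes, over few genes. The median log2 fold change of the 9 genes over the 3 weeks was -0.17, 0.14 and -0.07 for male hearts and -0.17, -0.23 and -0.24 for female hearts. Over all genes tested the median stayed between -0.02 and 0.02. *Agt*, *Edn1*, *Ednra* and *Adrb1* were not called at any week in either sex in this fit.

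**Figure D2:**
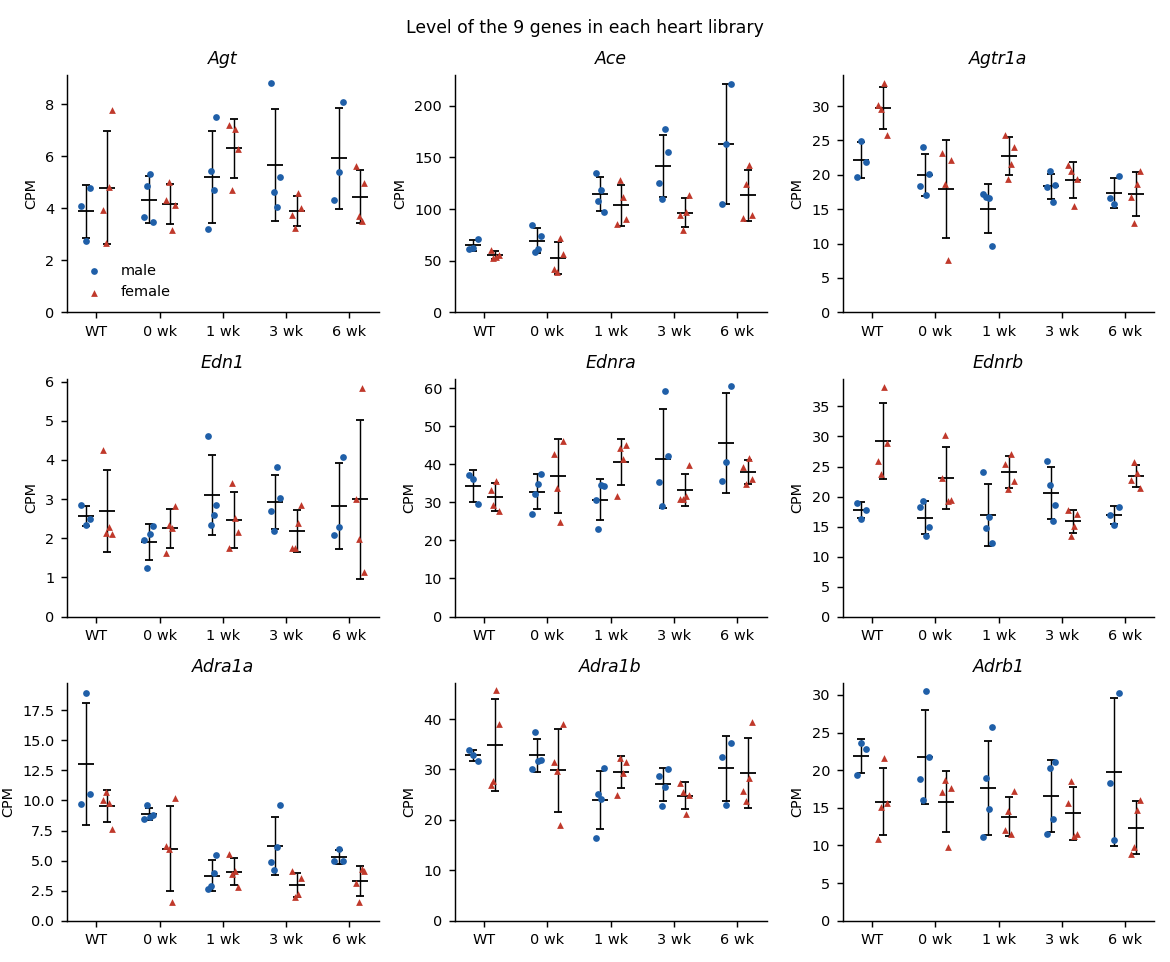
Level of each of the 9 genes in CPM (axes from 0) by group in male (circles) and female (triangles) libraries. Bars are means ± SD over 3 or 4 libraries. *Ace* after induction lies above WT in all libraries of both sexes and *Adra1a* lies below WT. *Agt*, *Edn1*, *Ednra* and *Adrb1* overlap with WT at every week after induction.

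**Figure D3:**
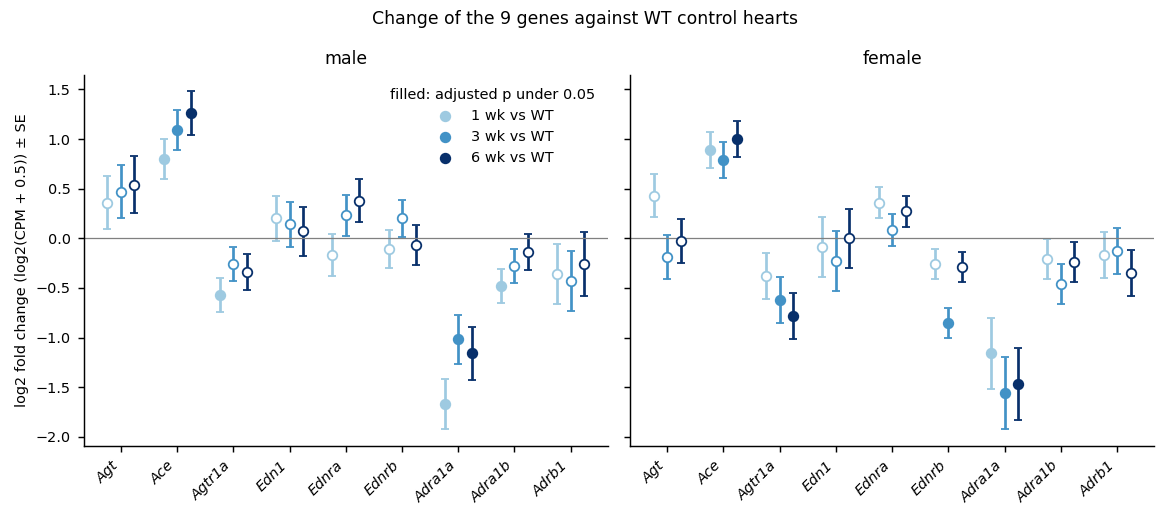
Log2 fold change against WT (± SE, limma) at 1, 3 and 6 weeks for the 9 genes in each sex, with filled points for an adjusted p under 0.05. *Ace* is filled above 0 and *Adra1a* filled below 0 at all weeks in both sexes.

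*Ace* (ENSMUSG00000020681, GRCm39 chr11:105858469-105880790, + strand) encodes the peptidase that makes angiotensin II and also degrades bradykinin. In males its level was 61.4, 62.7 and 71.1 CPM in WT, 135, 108, 118 and 97.0 CPM at 1 week, 125, 110, 177 and 155 CPM at 3 weeks, and 105, 163 and 221 CPM at 6 weeks. In females it was 60.6, 52.2, 53.5 and 55.1 CPM in WT, 85.3, 128, 112 and 90.2 CPM at 1 week, 94.3, 80.0, 97.5 and 114 CPM at 3 weeks, and 91.4, 124, 143 and 94.1 CPM at 6 weeks. Every induced heart of either sex lay above every WT heart of its sex. In males *Ace* rose by 0.80 ± 0.20 (SE) at 1 week, 1.09 ± 0.20 at 3 weeks and 1.26 ± 0.22 at 6 weeks on the log2 scale, the last a 2.39-fold rise (limma, adjusted p = 0.00494, 0.000538 and 0.000234). In females it rose by 0.89 ± 0.18, 0.79 ± 0.18 and 1.00 ± 0.18, the last 2.0-fold (limma, adjusted p = 0.000753, 0.00196 and 0.000145). Without female 6-week replicate 2 the 6-week rise was 0.95 (adjusted p = 0.000864), and without female 1-week replicate 2 the 1-week rise was 0.78 (adjusted p = 0.00419).

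The uninduced hearts were at the WT level of *Ace*. Males at 0 wk had 84.3, 58.2, 61.3 and 74.3 CPM and females 38.9, 42.3, 72.1 and 56.6 CPM. The differences from WT were 0.08 (95% interval -0.34 to 0.51) in males and -0.12 (-0.49 to 0.25) in females. Against these hearts, *Ace* was higher in induced males by 0.72, 1.01 and 1.17 and in induced females by 1.0, 0.90 and 1.12 (1, 3 and 6 weeks), again without overlap (limma, adjusted p between 8.49e-05 and 0.0106). Without female 0 wk replicate 3 the female values were 1.17, 1.07 and 1.28. The rise of *Ace* was called in both sexes, against both reference groups and under every alternative in scale, filter, model or libraries. With a log2 fold change of at least 1 also required, it was called against WT at 3 and 6 weeks in males and at 6 weeks in females. Among endothelial markers, since *Ace* is known as an endothelial gene, the sum over 10 markers was 999 to 1204 CPM in male WT and 742 to 997 CPM at 6 weeks, and 988 to 1161 and 729 to 915 CPM in females, with none at 0. Within that list *Vwf* rose and 4 genes in males and 5 in females fell at 6 weeks. The sum of 4 endocardial markers was higher, at 60.0 to 88.2 CPM against 13.2 to 21.2 CPM in males and 70.3 to 163 CPM against 22.4 to 33.2 CPM in females, with *Plvap* and *Cdh11* called. The part of these cells in the rise of *Ace* was not tested.

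*Agt* (ENSMUSG00000031980, GRCm39 chr8:125279301-125296716, - strand), the precursor of all angiotensins, stayed low. Its level was 4.08, 2.76 and 4.79 CPM in male WT and 4.30, 5.40 and 8.07 CPM in males at 6 weeks. Female values were 3.92, 2.66, 4.80 and 7.76 CPM in WT and 5.63, 3.69, 3.51 and 4.96 CPM at 6 weeks. The groups overlapped. The male differences from WT over the weeks were 0.36, 0.47 and 0.54, the last with a 95% interval of -0.07 to 1.15. The female differences were 0.43, -0.19 and -0.03, with an interval of -0.49 to 0.43 at 6 weeks. The 1-week value was 0.68 and passed (limma, adjusted p = 0.0171) without female WT replicate 4, the WT heart with 7.76 CPM.

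*Agtr1a* (ENSMUSG00000049115, GRCm39 chr13:30518942-30566850, + strand) encodes the AT1a receptor. In females its level was 30.1, 29.6, 33.3 and 25.8 CPM in WT, 25.8, 19.4, 21.6 and 24 CPM at 1 week, 21.4, 20.6, 15.5 and 19.4 CPM at 3 weeks, and 16.8, 13.0, 18.6 and 20.5 CPM at 6 weeks. From 3 weeks on, every induced female heart lay below every WT heart. *Agtr1a* fell in females by 0.62 ± 0.23 at 3 weeks (limma, adjusted p = 0.0489) and by 0.78 ± 0.23 at 6 weeks (adjusted p = 0.0109). The 3-week call was lost in 10 of 17 alternatives in scale, filter, model or libraries (those without a fold requirement), among them the omission of any 1 library of either group. The 6-week call held in all 17, with -0.66 and adjusted p = 0.0457 without replicate 2.

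In males *Agtr1a* was at 19.7, 24.9 and 21.8 CPM in WT, 17.2, 16.8, 16.7 and 9.70 CPM at 1 week, and 16.6, 15.7 and 19.8 CPM at 6 weeks. It fell by 0.57 ± 0.17 at 1 week (limma, adjusted p = 0.0157), a call that was lost without WT replicate 3 (adjusted p = 0.0871). At 3 and 6 weeks the male differences were -0.26 (95% interval -0.62 to 0.10) and -0.34 (-0.72 to 0.04). Uninduced females already lay lower than WT, at 18.7, 23.2, 7.67 and 22.1 CPM, without overlap, but this difference of -0.82 did not pass (limma, adjusted p = 0.0647). It was -0.47 (adjusted p = 0.141) without replicate 3, but it passed without replicate 1 (-0.98, adjusted p = 0.0256) or replicate 4 (-0.96, adjusted p = 0.0284). Relative to uninduced females the induced groups differed in *Agtr1a* by 0.44, 0.20 and 0.04 at 1, 3 and 6 weeks, and none of these passed. Replicate 3 set the sign of the later 2, since without it the differences of *Agtr1a* were 0.09, -0.15 and -0.31 (limma, adjusted p = 0.75, 0.502 and 0.114).

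*Edn1* (ENSMUSG00000021367, GRCm39 chr13:42446301-42461466, + strand), the gene of endothelin-1, was lower in CPM than both endothelin receptors. Male hearts had 2.85, 2.35 and 2.49 CPM in WT and 2.09, 2.29 and 4.08 CPM at 6 weeks. Female hearts had 4.26, 2.13, 2.30 and 2.11 CPM in WT and 3.01, 1.98, 5.83 and 1.14 CPM at 6 weeks, a spread within the 6-week group that spans the whole WT range. The differences at 6 weeks were 0.07 (95% interval -0.45 to 0.59) in males and 0.00 (-0.63 to 0.63) in females. The male 1-week hearts, at 2.35 to 4.62 CPM, lay above all uninduced male hearts, at 1.25 to 2.31 CPM, but the difference of 0.57 did not pass (limma, adjusted p = 0.076). The uninduced males also lay below all male WT hearts, a difference of -0.37 (95% interval -0.86 to 0.12) that did not pass (limma, adjusted p = 0.617). Against WT the male 1-week difference of *Edn1* was 0.20, with overlap.

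*Ednra* (ENSMUSG00000031616, GRCm39 chr8:78386590-78451552, - strand) encodes the ETA receptor, which mediates constriction. It was at 37.1, 36.2 and 29.5 CPM in male WT and 35.7, 40.5 and 60.6 CPM at 6 weeks, and at 33.2, 29.2, 35.5 and 27.7 CPM in female WT and 39.2, 34.8, 41.7 and 36.2 CPM at 6 weeks. The differences of 0.38 (95% interval -0.09 to 0.85) in males and 0.27 (-0.05 to 0.60) in females did not pass. At 1 week the sexes had differences of -0.17 in males and 0.36 in females, neither called, and a difference between the sexes was not tested. The female 1-week value passed with only WT and 1-week hearts in the fit (limma, adjusted p = 0.0414) and without 1-week replicate 1 (0.47, adjusted p = 0.033).

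*Ednrb* (ENSMUSG00000022122, GRCm39 chr14:104052053-104081900, - strand) encodes the ETB receptor, which is known to clear endothelin-1 and to release nitric oxide in endothelium. In females it was at 26, 23.8, 38.3 and 28.9 CPM in WT, 25.5, 21.2, 27.1 and 22.6 CPM at 1 week, 17.7, 13.5, 15.1 and 17.1 CPM at 3 weeks, and 22.7, 25.7, 23.9 and 21.5 CPM at 6 weeks. The 3-week hearts lay below all other female groups, and the 6-week hearts overlapped with WT again. *Ednrb* fell by 0.85 ± 0.15 at 3 weeks (limma, adjusted p = 0.000155), a call kept in all 17 alternatives, and by 0.51 ± 0.15 against uninduced females (adjusted p = 0.0207). Leaving out female 0 wk replicate 3 gave -0.59 (adjusted p = 0.00912) for the latter, which was lost in 4 of 17 alternatives. At 1 and 6 weeks the female differences were -0.26 and -0.29 and did not pass. Male hearts had 19.0, 16.3 and 17.8 CPM in WT and 26, 21.9, 16.0 and 18.6 CPM at 3 weeks, a difference of 0.20 (95% interval -0.20 to 0.59).

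Within a library, the ratio of both endothelin receptors is free of the scaling between libraries. For every 100 reads on *Ednrb* there were 92.8 to 128 reads on *Ednra* in female WT, 174 to 232 at 3 weeks and 135 to 174 at 6 weeks. The female 3- and 6-week libraries all lay above the WT range. The ratio did not separate induced from uninduced females, since it was 111 to 237 at 0 wk and 125 to 209 at 1 week. In males the ratio was 166 to 222 in WT, 147 to 259 at 0 wk and 210 to 331 at 6 weeks, with overlap. These ratios were computed after the values had been seen and are given with no test.

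*Adra1a* (ENSMUSG00000045875, GRCm39 chr14:66872700-67012152, + strand) encodes the α1A-adrenoceptor, an α1 subtype of cardiomyocytes, and showed the largest falls of the 9 genes. In males its level was 9.74, 18.9 and 10.5 CPM in WT, 2.61, 2.86, 3.99 and 5.43 CPM at 1 week, 4.86, 4.20, 6.11 and 9.64 CPM at 3 weeks, and 4.98, 6.00 and 4.99 CPM at 6 weeks. In females it was 10, 10.7, 9.81 and 7.65 CPM in WT, 5.55, 3.87, 4.10 and 2.78 CPM at 1 week, 4.13, 2.01, 2.26 and 3.56 CPM at 3 weeks, and 3.17, 1.59, 4.29 and 4.10 CPM at 6 weeks. Every induced heart lay below every WT heart of its sex, by a narrow margin for the highest male 3-week heart. In males *Adra1a* fell by 1.67 ± 0.25 at 1 week, 1.02 ± 0.25 at 3 weeks and 1.16 ± 0.27 at 6 weeks (limma, adjusted p = 5.83e-05, 0.00639 and 0.00341). In females it fell by 1.16 ± 0.36, 1.56 ± 0.36 and 1.47 ± 0.36 (limma, adjusted p = 0.0208, 0.00248 and 0.00299), to 0.361 of the WT level at 6 weeks.

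Male WT replicate 3, at 18.9 CPM, carried part of the male difference. Without it the falls were -1.38 (adjusted p = 0.000962), -0.73 (0.0731) and -0.87 (0.0339) at 1, 3 and 6 weeks, so that the 3-week call was lost. The female 1-week call was lost without WT replicate 2 (-1.10, adjusted p = 0.0538) or without 1-week replicate 4 (-1.01, adjusted p = 0.0664). The female values without the libraries with atrial genes were -1.15 at 1 week (adjusted p = 0.0434) and -1.21 at 6 weeks (adjusted p = 0.0163). In this bulk RNA, the sum of cardiomyocyte markers at 6 weeks had a median of 43805 CPM against 60788 CPM in male WT and of 37066 CPM against 50719 CPM in female WT.

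The reference group mattered for *Adra1a*. Uninduced males had 8.48, 9.61, 8.66 and 8.81 CPM, just below all WT males, with a difference of -0.47 (95% interval -1.0 to 0.06). Uninduced females had 5.98, 6.23, 1.54 and 10.2 CPM, with a difference from WT of -0.84 (-1.60 to -0.09) that did not pass (limma, adjusted p = 0.263) and was -0.36 (adjusted p = 0.689) without replicate 3. Against the uninduced hearts *Adra1a* fell in males at 1 week by 1.20 ± 0.24 (adjusted p = 0.00129), and the differences of -0.55 at 3 weeks and -0.69 at 6 weeks did not pass (adjusted p = 0.125 and 0.0605). With the replicate block, the male 6-week difference was -0.76 and passed (adjusted p = 0.0295), and without male 3-week replicate 4 the 3-week difference was -0.77 and passed (adjusted p = 0.0268). In females the differences of -0.31, -0.72 and -0.62 did not pass in limma, while DESeq2 on all libraries called *Adra1a* at 3 weeks (-1.01, adjusted p = 0.0424). The limma values moved with 0 wk replicate 3, which at 1.54 CPM lay far below its group. Without it the differences of *Adra1a* were -1.20 at 3 weeks (adjusted p = 0.0035) and -1.11 at 6 weeks (adjusted p = 0.00519), and both passed.

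*Adra1b* (ENSMUSG00000050541, GRCm39 chr11:43665433-43792037, - strand) encodes the α1B-adrenoceptor. Male hearts had 33.9, 32.8 and 31.7 CPM in WT, 16.4, 25.1, 24.2 and 30.2 CPM at 1 week and 32.4, 22.9 and 35.3 CPM at 6 weeks. It fell in males at 1 week, by 0.48 ± 0.17 against WT (limma, adjusted p = 0.0365) and by 0.47 ± 0.16 against uninduced hearts (adjusted p = 0.0413). These calls were lost in 6 of 16 and 8 of 17 alternatives. In females it was 26.9 to 45.7 CPM in WT and 23.8 to 39.4 CPM at 6 weeks, with differences of -0.21, -0.46 and -0.24 at 1, 3 and 6 weeks that did not pass. The 3-week difference of *Adra1b* passed with only WT and 3-week hearts in the fit (limma, adjusted p = 0.0332) and without WT replicate 1 (-0.57, adjusted p = 0.0471). For every 100 reads on *Adra1b* there were 28.8 to 57.6 reads on *Adra1a* in male WT and 14.1 to 26.2 at 6 weeks. In females there were 19.6 to 38.4 in WT and 6.67 to 15.1 at 6 weeks, again without overlap. The uninduced hearts had 25.6 to 28.2 reads in males and 8.14 to 26.1 in females, and overlapped with the 6-week range. In females this overlap came from 0 wk replicate 3 alone, at 8.14. Without it the uninduced females had 19.8 to 26.1, above all 6-week females. In males it came from 1 library at 6 weeks, with 26.2. Male 3-week hearts reached 32.1 and female 1-week hearts 22.2, within the WT range. These ratios too were computed after the values had been seen and carry no test.

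**Figure D4:**
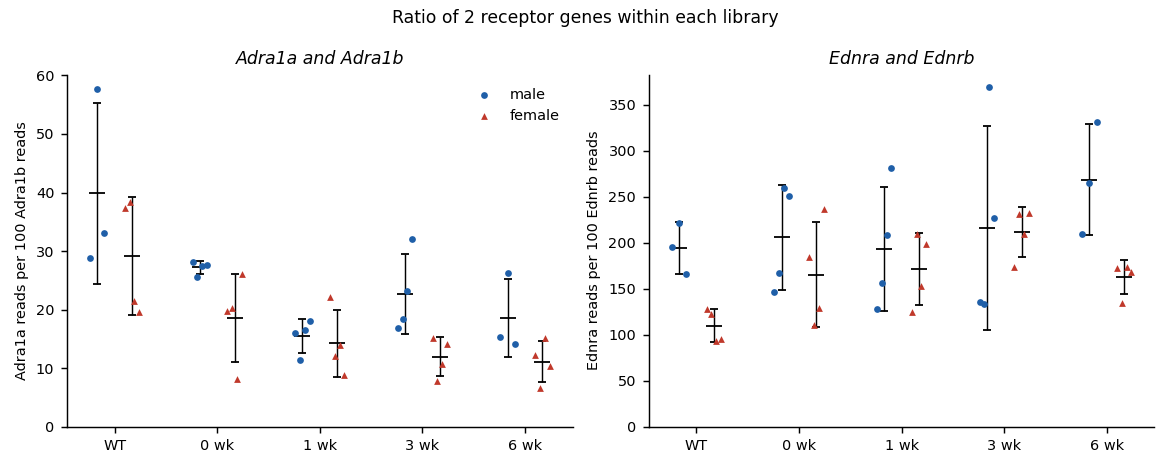
Reads on *Adra1a* per 100 reads on *Adra1b* (left) and reads on *Ednra* per 100 reads on *Ednrb* (right) in each male (circles) and female (triangles) library by group, with axes from 0 and bars for the mean ± SD. At 6 weeks the first ratio is 14.1 to 26.2 in males and 6.67 to 15.1 in females, below WT in both sexes. The second is above WT in females at 3 and 6 weeks. Uninduced hearts overlap with the 6-week hearts in both ratios. In the first ratio this rests on 1 uninduced female library (replicate 3, at 8.14) and 1 male 6-week library (26.2).

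*Adrb1* (ENSMUSG00000035283, GRCm39 chr19:56710631-56721545, + strand) encodes the β1-adrenoceptor, the main β receptor of cardiomyocytes. Male hearts had 19.3, 23.6 and 22.8 CPM in WT and 18.3, 10.7 and 30.3 CPM at 6 weeks, and female hearts 10.9, 15.1, 21.6 and 15.7 CPM in WT and 8.88, 9.79, 14.7 and 16.1 CPM at 6 weeks. The ranges overlapped at every week. The differences ran from -0.43 to -0.26 in males and from -0.35 to -0.13 in females, and none passed. The 95% interval at 6 weeks was -0.94 to 0.42 in males and -0.83 to 0.14 in females.

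No member was called between uninduced and WT hearts, where limma called 0.597% of all genes in males and 2.87% in females. In females 3 of the 9 genes (*Agtr1a*, *Adra1a* and *Ednrb*) had an unadjusted p under 0.05 in that comparison and in males 0, and DESeq2 called *Agtr1a* in females (adjusted p = 0.0424). Against uninduced hearts, the male calls numbered 3, 1 and 1 of the 9 genes at the successive weeks, where 18.8%, 16.1% and 20.4% of all genes were called in either direction. In females 1, 2 and 1 were called, where 12.6%, 16.7% and 22.8% of all genes were. The uninduced libraries serve as reference in all of these comparisons, as the WT libraries do in the others.

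Between the weeks after induction no member was called in either sex by limma fitted on all libraries of a sex. With only the 2 groups in the fit, *Ednrb* was called in females, lower at 3 than at 1 week by -0.59 (limma, adjusted p = 0.0472). The share of all genes called was 0.0177% for 3 against 1 week, 0.165% for 6 against 1 week and 0.0% for 6 against 3 weeks in males, and 0.218%, 1.03% and 0.0% in females. At an unadjusted p under 0.05 there were 1, 2 and 0 of the 9 genes in males and 2, 0 and 1 in females. For 6 against 3 weeks, 1072 genes in males and 2572 in females had an unadjusted p under 0.05, edgeR called 0 genes in either sex, and DESeq2 called 1 in males and 116 in females. *Ednrb* was among the latter, higher at 6 than at 3 weeks by 0.57 (DESeq2, adjusted p = 0.0483), and DESeq2 also placed it lower at 3 than at 1 week in females, by -0.61 (adjusted p = 0.0291).

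An exact permutation test (two-sided) of each gene in each group against WT, 72 tests in all, gave the smallest p that its design allows in each comparison of *Ace* and of *Adra1a* with induced hearts, in both sexes. That smallest p was also reached by *Agtr1a* (males at 1 week, females at 3 and 6 weeks), *Adra1b* (males at 1 and 3 weeks) and *Ednrb* (females at 3 weeks). Uninduced hearts reached it too, for *Adra1a* and *Edn1* in males and for *Agtr1a* in females. That floor is 0.1 for 3 against 3 libraries, 0.057 for 3 against 4 and 0.029 for 4 against 4. After adjustment over the 72 exact tests the lowest value was 0.19. With these floors no test could have reached an adjusted p under 0.05, whatever its values. The adjusted exact test therefore cannot decide which genes differed.

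Against WT, the reference for the gene lists unless another is named, the other genes of these systems moved in both directions. Of 22 further renin-angiotensin genes 17 were in the tables and tested, and at 6 weeks 3 rose and 2 fell in males and 11 rose and 1 fell in females. Over all genes 16.2% rose and 10.9% fell in males at 6 weeks, and 21.7% and 21.0% in females, so that the male counts are near those shares. Their median log2 fold change was 0.20 in males and 0.62 in females. Members of this list that rose in both sexes at 6 weeks were *Anpep*, *Ctsa* and *Prcp*, peptidases that trim angiotensin peptides. *Anpep*, the aminopeptidase N that cleaves angiotensin III, rose from 11.1 ± 3.24 (SD, n = 3) to 56.2 ± 16.9 CPM (n = 3) in males and from 13.8 ± 1.57 to 64.7 ± 15.7 CPM (n = 4 each) in females. Its log2 fold changes were 2.28 and 2.16 (limma, adjusted p = 2.62e-08 and 4.14e-08). *Mas1*, the receptor of angiotensin-(1-7), fell against WT in both sexes at every week and was low throughout. It was at 0.993 to 1.35 CPM in male WT and 0.420 to 0.534 CPM at 6 weeks, and at 1.03 to 1.55 and 0.0430 to 0.238 CPM in females. Against uninduced hearts *Mas1* was called lower only in females at 6 weeks, and not without 6-week replicate 2.

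In females *Cma1*, *Cpa3* and *Mcpt4*, which encode mast cell proteases, rose at all 3 weeks. *Cma1* and *Cpa3* also rose in males at 1 week, *Cma1* from 0.303 to 0.651 CPM in WT to 1.63 to 2.73 CPM, and all 3 were called there against uninduced hearts. The 3 genes are also in the mast cell marker list. *Cma1* was at 0.629 to 1.27 CPM in female WT and 3.22 to 6.57 CPM at 6 weeks. The sum of the 6 mast cell markers was 7.11 to 13.0 CPM in female WT and 16.3 to 28.1 CPM at 6 weeks. Over 5 markers in males it was 6.78 to 14.3 CPM in WT, 8.71 to 10.1 CPM at 1 week and 4.94 to 11.9 CPM at 6 weeks, with none at 0 in either sex. *Ren1*, *Agtr1b*, *Agtr2*, *Ctsg* and *Klk1* were in neither table.

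Of the endothelin-system genes beyond the 3 described, *Ece1*, which cuts big endothelin-1 to endothelin-1, rose at 6 weeks in both sexes, by 0.38 ± 0.12 in males (limma, adjusted p = 0.0237) and by 0.36 ± 0.13 in females (adjusted p = 0.0272). Without female 6-week replicate 2 the female rise of *Ece1* was 0.31 and did not pass (adjusted p = 0.0868). Against uninduced hearts at 6 weeks *Ece1* was called higher in males and was not called in females. *Edn3* was tested in males, where it fell by 0.98 ± 0.25 at 6 weeks from a low level of 0.374 to 1.20 CPM to 0.0486 to 0.187 CPM. Those 2 genes in males and *Ece1* in females were the tested members of that list of 5.

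Of 6 further adrenergic receptor genes 3 were in the tables. *Adra2b* fell at 6 weeks in both sexes, by 1.03 ± 0.30 in males and 1.37 ± 0.22 in females (limma, adjusted p = 0.0139 and 4.08e-05), from 0.974 to 1.59 CPM to 0.219 to 0.770 CPM in males. Against uninduced hearts at 6 weeks *Adra2b* was called lower in females and was not called in males. *Adra1d*, the remaining α1 subtype, had 6-week differences of -0.61 in males and -0.08 in females that did not pass.

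Downstream of the receptors, 18 of 18 listed transduction genes were tested. At 6 weeks 3 rose and 6 fell in males and 5 rose and 7 fell in females, with medians of -0.03 and -0.09. The shares that rose are near those of all genes (16.2% in males and 21.7% in females), while 10.9% and 21.0% of all genes fell. *Adcy6* and *Adcy5*, the main adenylyl cyclases of the heart, fell in both sexes at 6 weeks, *Adcy5* in females only with replicate 2 included (without it -0.38, adjusted p = 0.0756). *Adcy6* went from 255 ± 25 to 156 ± 31.7 CPM in males (n = 3 each) and from 218 ± 32.3 to 105 ± 17.5 CPM in females (n = 4 each), log2 fold changes of -0.73 and -1.05 (limma, adjusted p = 0.00817 and 1.76e-05). The cyclic nucleotide phosphodiesterases *Pde2a*, *Pde3a* and *Pde4d* and the phospholipase *Plcb4* also fell at 6 weeks in both sexes, though the female fall of *Pde3a* was not called without replicate 2 (-0.35, adjusted p = 0.152). *Gnai2*, an inhibitory G protein subunit, rose by 0.66 ± 0.13 and 0.53 ± 0.10 and *Prkar1a*, a regulatory subunit of protein kinase A, by 0.68 ± 0.21 and 1.00 ± 0.13, in males and females. Against uninduced hearts at 6 weeks, fewer of these named genes were called. In males these were *Pde3a* and *Pde4d* (lower) and *Gnai2* (higher). In females they were *Adcy6* and *Pde2a* (lower) and *Gnai2* and *Prkar1a* (higher), *Gnai2* only with 6-week replicate 2 included. Without female 0 wk replicate 3, *Adcy5*, *Pde3a* and *Pde4d* were also called lower in females.

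Among 11 genes of receptor desensitisation, 2 rose and 3 fell in males at 6 weeks, and 3 rose and 4 fell in females. Over all genes 16.2% rose and 10.9% fell in males at 6 weeks, and 21.7% and 21.0% in females. The counts that rose are near those shares, and the counts that fell are larger shares, over few genes. The arrestins *Arrb1* and *Arrb2*, which uncouple activated receptors, rose at every week in both sexes, *Arrb1* at 6 weeks from 29.4 ± 7.62 to 71.1 ± 5.45 CPM in males and from 26.4 ± 1.57 to 55.4 ± 9.89 CPM in females. *Rgs2* and *Rgs5*, which shorten G protein signals, fell at every week in both sexes. Against uninduced hearts *Rgs2* was not called in males at 6 weeks, nor *Rgs5* in males at 3 weeks. In females *Rgs2* was not called against uninduced hearts at any week, nor *Arrb2* at 1 week. Without female 0 wk replicate 3, *Rgs2* was called lower at every week and *Arrb2* higher at 1 week. *Rgs5* is also a pericyte gene, and the sum of the 10 pericyte and smooth muscle markers, of which it is 1, was 1207 to 1516 CPM in male WT and 785 to 944 CPM at 6 weeks, with none at 0. The receptor kinases *Grk2*, *Grk3* and *Grk6* were not called at 6 weeks in either sex, and *Grk5* rose in females (0.41 ± 0.11, adjusted p = 0.00689).

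Of 7 genes of catecholamine supply and clearance 6 were tested. At 6 weeks 3 rose and 1 fell in males and 2 rose and 1 fell in females. Over all genes 16.2% rose and 10.9% fell in males, and 21.7% and 21.0% in females. A count of 1 fall in 6 is near those shares, and the counts that rose are larger shares, over few genes. *Dbh*, the enzyme that makes noradrenaline, was at 3.70 to 3.94 CPM in male WT and 0.653 to 1.19 CPM at 6 weeks, and at 2.84 to 4.75 and 0.808 to 1.20 CPM in females, without overlap. Its log2 fold changes were -1.56 ± 0.23 and -1.58 ± 0.27 (limma, adjusted p = 4.91e-05 and 7.75e-05). Against uninduced females *Dbh* was not called at any week with all libraries. It was called lower there at every week without female 0 wk replicate 3. *Maoa*, which degrades noradrenaline, rose by 0.71 ± 0.22 and 1.21 ± 0.11. *Slc6a2*, the noradrenaline transporter, rose from 0 to 0.0375 CPM to 0.459 to 1.29 CPM in males and from 0 to 0.1 CPM to 0.436 to 2.39 CPM in females. The Schwann and neuronal marker list, which includes *Dbh*, summed to 7.90 to 9.96 CPM in male WT and 6.43 to 9.23 CPM at 6 weeks over the 5 of 7 genes in the table, and to 10.9 to 12.7 and 7.28 to 12.6 CPM over 6 genes in females.

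Of 7 hypertrophic and matrix genes that angiotensin II or endothelin-1 are known to induce, the numbers that rose over the successive weeks were 4, 1 and 0 in male hearts and 3, 1 and 3 in female hearts. Over all genes, 18.9%, 13.2% and 16.2% rose in males and 15.3%, 16.8% and 21.7% in females. A count of 1 in 7 is near those shares, and 3 or 4 in 7 is a larger share, over few genes. *Nppa* and *Rcan1* were among the listed genes that rose at 1 week in both sexes. *Nppa*, atrial natriuretic peptide, went from 56.1 ± 16.6 to 287 ± 356 CPM in females at 6 weeks, a group in which the library with atrial genes, replicate 2, had 818 CPM and the others 104, 166 and 61.8 CPM. Without it the 6-week difference of *Nppa* was 0.91 in place of 1.66 and did not pass (limma, adjusted p = 0.135). *Nppb* (0.98, adjusted p = 0.0625) and *Rcan1* (1.11, adjusted p = 0.0662), the other genes of the list called there, did not pass without it either. Without female 1-week replicate 2, 1 in place of 3 was called higher at 1 week, since *Nppa* (1.63, adjusted p = 0.0742) and *Rcan1* (1.30, adjusted p = 0.0535) did not pass. *Ccn2* and *Myh7* were not called against WT at any week in either sex.

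**Figure D5:**
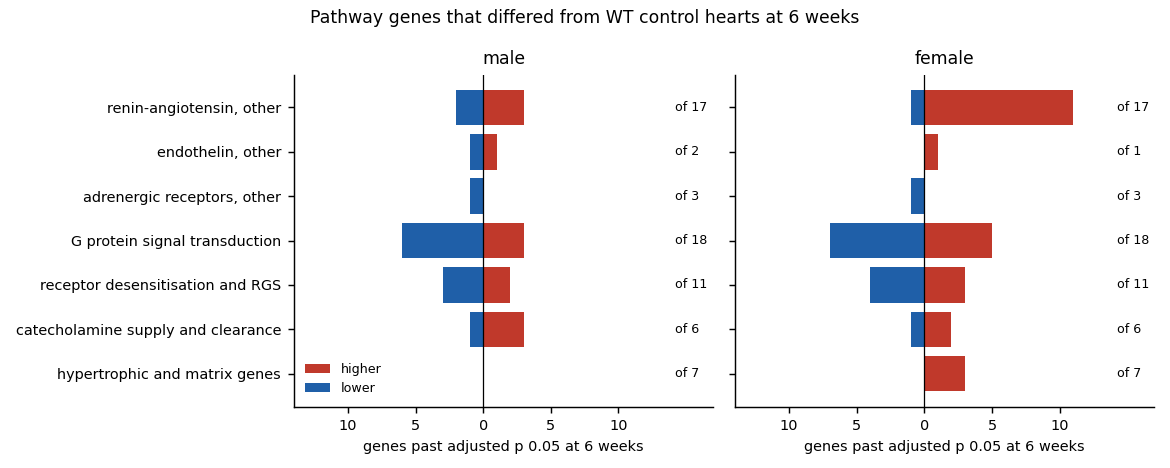
Number of genes of each list that were higher (red, to the right) or lower (blue, to the left) than WT at 6 weeks with an adjusted p under 0.05 (limma), by sex, with the number tested beside each bar. In females 11 of 17 further renin-angiotensin genes are higher, and in both sexes the transduction genes divide between rises and falls.

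The genes whose levels followed the 9 genes most closely were named by Pearson's r across all libraries with a group, 18 in males and 20 in females, among genes tested in both. These r values are descriptions, since the libraries share groups, depth and makeup. *Ace* was followed most closely by *Entpd1* (r = 0.97 in males and 0.95 in females), *Sgpl1* (0.95 and 0.93) and *Sulf1* (0.92 and 0.93). *Adra1a* was followed by *Fyco1* (0.95 and 0.92), *Dip2c* (0.95 and 0.91) and *Pank1* (0.91 and 0.93), and *Agtr1a* by *Ogn* (0.85 and 0.93), *Msi2* (0.85 and 0.83) and *Tmem179* (0.82 and 0.93). For the other 6 genes the closest gene ran from *Ednra* with *Ncstn* (0.68 and 0.67) to *Adra1b* with *Agpat3* (0.86 and 0.78).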

How the data were processed

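PolyA RNA from 40 mouse hearts was sequenced from a directional library kit. Reads were mapped by the authors with STAR (GRCm39), assigned to genes by featureCounts and deposited as signal values in CPM, with 1 table per sex. Columns sum to between 817395 and 1196278, and 100% of values lie within 0.001 of a whole read once a factor per library is removed, so whole read counts could be recovered. The filter behind the listed genes and the strand setting of the counting are not given in the sources used here. *Agt* overlaps genes on the other strand at its end, and all other members except *Ednrb* overlap annotated noncoding genes, so their reads may be shared.

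Groups came from the labels. In 2 male libraries the title and description disagreed, and both were left out of all tests. Tables were scaled separately, so tests were made within a sex. limma 3.58.1 (R 4.3.3) with a mean-variance trend was run on log2(CPM + 0.5), without covariates, on the 16931 male and 16956 female genes that reached 0.5 in 3 or more libraries. Alternatives were pseudocounts of 0.1 and 2, no filter, a filter of 1 CPM in 4 libraries, median-of-ratios scaling, only the groups compared, a replicate block, edgeR 4.0.16 and DESeq2 1.42.0 on recovered reads, a log2 fold change of at least 1, and omission of each library. Gene positions and lengths are from GENCODE M39. Exact permutation tests used scipy 1.17.1.

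Replicates are separate mice. The lowest chi-square per gene over 54 replicate pairs was 6.76, so no pair was counted as 1 sample. On simulated data for 6 weeks against WT, 20% of 100 genes changed 1.5-fold and 86% of 100 changed 2-fold were recovered in males (16647 genes), and 32% and 92% in females (16723 genes). The simulation gave every gene the same spread between libraries and changed no further genes. In the hearts, 4580 genes in males and 7245 in females were called in that comparison. The simulated shares are therefore not the sensitivity in these data. Named genes are the 9 members, the genes of the 7 pathway lists, the marker genes and the genes most like each member. Some list genes are not reported here by name. The members and lists were chosen with earlier results of these data known.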

Additional observations from a re-analysis of the deposited data

Results flagged for a closer look

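Among 72 sets of 4 libraries checked for a library far from the rest, 3 had one, and chance gives about 1 in 20. *Agtr1a* was at 9.70 CPM in male 1-week replicate 4, with the others at 16.7 to 17.2 CPM. *Edn1* was at 4.26 CPM in female WT replicate 1, with the others at 2.11 to 2.30 CPM. *Ednra* was at 39.7 CPM in female 3-week replicate 4, with the others at 30.8 to 31.6 CPM.

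The 2 male libraries left out of the tests held values outside the range of the 3 male WT libraries. The library titled as control and described as 6 weeks had 161 CPM of *Ace* (highest WT 71.1), 58.4 CPM of *Ednra* (37.1), 22.5 CPM of *Ednrb* (19.0) and 4.14 CPM of *Edn1* (2.85). That library lay below WT with 17.1 CPM of *Agtr1a* (lowest WT 19.7), 10.8 of *Adrb1* (19.3), 7.75 of *Adra1a* (9.74) and 21.0 of *Adra1b* (31.7). The library titled as 6 weeks and described as control lay above the highest WT with 72.6 CPM of *Ace*, 25.4 CPM of *Agtr1a* (24.9), 37.2 CPM of *Adra1b* (33.9), 40.4 CPM of *Ednra* and 3.06 CPM of *Edn1*. *Il11* was at 511 CPM in the first and 0.597 CPM in the second.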

How the results depend on the processing

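Counts of members called changed by over 1.5 times as follows. With a log2 fold change of at least 1 required, there was 1 at 1 week against WT in males, 1 at 1 week against uninduced hearts in males, 1 at 1 week and 1 at 3 weeks against WT in females, and 0 at 3 weeks against uninduced hearts in females. With only the groups compared in the fit, there were 2 in males at 6 weeks against uninduced hearts (*Adra1a* besides *Ace*), and in females 4 at 1 week against WT, 1 at 3 weeks against uninduced hearts and 1 for 3 against 1 week. DESeq2 gave 2 in males at 6 weeks against uninduced hearts, and in females 1 for uninduced against WT, 1 for 3 against 1 week and 1 for 6 against 3 weeks. With the replicate block there were 2 in males at 6 weeks against uninduced hearts, and the block moved no other count of members by over 1.5 times. Replicate numbers do not pair the libraries, since the mean correlation of deviations was 0.013 in males and 0.025 in females for the same number. Over the omission of each library, counts against WT ran from 2 to 4 (males, 1 week), 1 to 2 (males, 3 weeks), 1 to 3 (females, 1 week) and 0 to 1 (females, uninduced). Against uninduced hearts they ran from 1 to 2 (males, 3 weeks), 1 to 3 (females, 3 weeks) and 1 to 2 (females, 6 weeks).

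Against WT, signs turned only in differences near 0 that were not called. *Adra1b* in uninduced males was 0.00 with edgeR and *Ednra* there was 0.03 with the replicate block. *Edn1* in females at 6 weeks was 0.03 with a pseudocount of 2, 0.01 with median-of-ratios scaling, 0.14 with edgeR and 0.16 with DESeq2. *Adrb1* in uninduced females was 0.01 with median-of-ratios scaling and with DESeq2. Over the omission of each library, male differences from WT ran from -0.29 to 0.03 for *Ednrb* at 1 week and, at 6 weeks, from -0.63 to 0.11 for *Adrb1*, -0.26 to 0.04 for *Adra1b* and -0.18 to 0.23 for *Edn1*. In uninduced males they ran from -0.02 to 0.16 for *Ace*, -0.05 to 0.30 for *Agt*, -0.21 to 0.09 for *Adrb1*, -0.07 to 0.03 for *Adra1b* and -0.17 to 0.03 for *Ednra*. In females they ran from -0.24 to 0.11 for *Edn1* at 1 week, at 3 weeks from -0.40 to 0.06 for *Agt*, -0.29 to 0.03 for *Adrb1* and -0.01 to 0.14 for *Ednra*, and at 6 weeks from -0.25 to 0.21 for *Agt* and -0.35 to 0.30 for *Edn1*. In uninduced females they ran from -0.28 to 0.01 for *Ace*, -0.33 to 0.14 for *Agt*, -0.16 to 0.20 for *Adrb1* and -0.28 to 0.02 for *Edn1*. The causes of these shifts were not tested.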
